A study of Caenorhabditis elegans with 12 samples.

Results

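Argonautes are the proteins that hold small RNAs and use them to find matching transcripts. In Caenorhabditis elegans they work in separate branches. ALG-1 and ALG-2 carry microRNAs. ERGO-1 and the paired ALG-3 and ALG-4 carry the 26G class of small interfering RNAs, ERGO-1 in oocytes and embryos and ALG-3 and ALG-4 in developing sperm. RDE-1 takes up small RNAs cut from long double-stranded RNA. PRG-1 carries the piRNAs of the germline. CSR-1, WAGO-1 and HRDE-1 carry 22G RNAs that are copied from target transcripts: CSR-1 binds RNAs made from genes the germline expresses, WAGO-1 acts in silencing in the cytoplasm of germ cells, and HRDE-1 acts in germ cell nuclei in silencing that can pass to later generations. Here 10 Argonaute genes, alg-1, alg-2, alg-3, alg-4, ergo-1, rde-1, prg-1, csr-1, wago-1 and hrde-1, were followed by name through a table of 15365 genes, and all 10 were found in it.

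RNA sequencing had been done on whole wild type N2 worms in 12 libraries, 3 for each of 4 groups. Control worms grew on standard medium, Glu worms on medium with 2% glucose from the L4 larval stage, DMSO+Glu worms on 2% glucose with dimethyl sulfoxide, and Nar+Glu worms on 2% glucose with 25 μM naringin, a flavonoid glycoside of citrus fruit. All groups were fed OP50 bacteria, and the 3 exposed groups all received glucose. According to the study's methods naringin was dissolved in dimethyl sulfoxide, so the Nar+Glu worms received this solvent too, and worms of all groups were adults kept for the same number of days from L4. So Glu with Control addresses glucose, DMSO+Glu with Glu the solvent, and Nar+Glu with DMSO+Glu naringin. Nothing in the labels says that the 3 samples of a group were separate cultures, so the p-values measure only the spread between these samples.

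Levels are given as FPKM, fragments scaled by transcript length and by library size, so that genes can be compared with each other. Changes are differences of log2(FPKM + 1), and a change was called at an adjusted p below 0.05 in limma with Benjamini-Hochberg adjustment over the 12151 genes with a mean above 1 FPKM. This scale understates the changes of low genes. Groups are said not to overlap when their ranges are separate, and the share of all genes without overlap was not computed. The summed FPKM of a library ran from 308900 to 362748, with the number of fragments unknown. For these whole worms the table held 41 sperm, 26 oocyte and 25 germ cell markers, while some listed sperm markers, such as spe-9, were not in it. Only genes with a highest group mean of at least 0.5 FPKM were in the table, so none of these markers could be at 0 in every library. Fewer cells of a type and less RNA per cell cannot be told apart in such samples.

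The Argonautes covered a wide range of levels. The 22G Argonautes of the germline stood at the top: hrde-1 had a mean of 131.7 FPKM over the 12 libraries, above 97.9% of all genes in the table, and wago-1 had 114.5 FPKM, above 97.4%. Next came ergo-1 at 76.4, prg-1 at 71.2 and csr-1 at 52.97 FPKM, each above at least 92.0% of genes. The RNA interference Argonaute rde-1 had 27.7 FPKM. The microRNA Argonautes were lower, alg-2 at 23.5 and alg-1 at 18.8 FPKM, above 75.6% and 70.6% of genes. The sperm Argonautes alg-4 and alg-3 had only 0.632 and 0.612 FPKM, above 12.8% and 12.2% of genes. So 8 of the 10 members passed the filter on low values, and alg-3 and alg-4 did not.

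In WBcel235, the assembly the authors used, the 10 genes lie apart on 6 chromosomes. The 22G Argonautes are csr-1 (chromosome IV, 7957267 to 7962157, plus strand), wago-1 (I, 7235384 to 7238792, plus) and hrde-1 (III, 4172337 to 4176159, minus). The others of germline or RNA interference are prg-1 (I, 7585329 to 7588367, minus), ergo-1 (V, 1008803 to 1018352, plus) and rde-1 (V, 9987916 to 9991642, minus). The microRNA Argonautes are alg-1 (X, 13949110 to 13956261, plus) and alg-2 (II, 873212 to 879885, plus), and the sperm Argonautes are alg-3 (IV, 11704246 to 11708264, plus) and alg-4 (III, 9887209 to 9891424, minus). Exons of csr-1 share 438 bases on the same strand with frpr-10, which is not in the table, so fragments there could belong to either gene. The other exon overlaps were 96 bases of alg-1 with a small nucleolar RNA on the same strand, 17 bases of ergo-1 with pei-2 and 12 bases of prg-1 with D2030.12, both of the latter on the opposite strand. The close relatives alg-1 and alg-2, alg-3 and alg-4, and prg-1 and prg-2 could share fragments, and how these were divided is not known from the values.

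**Figure D1:**
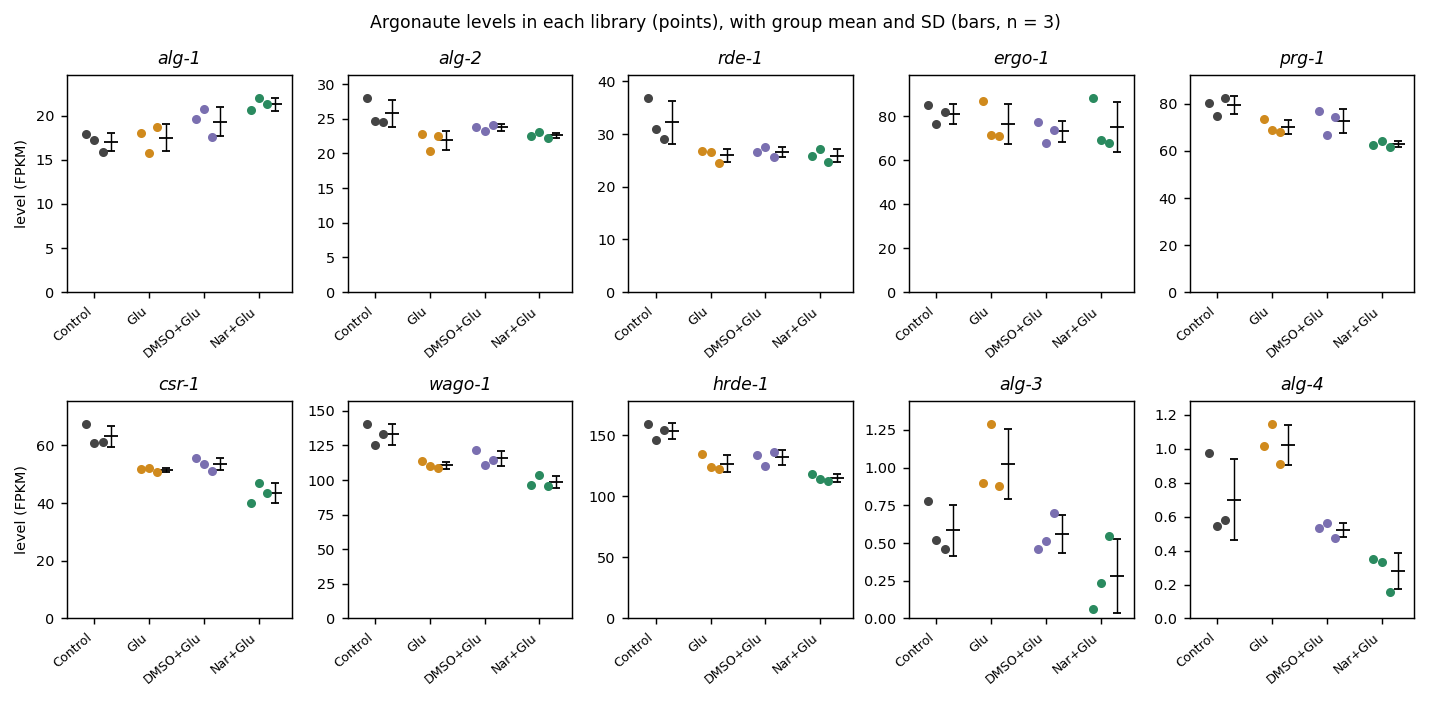
Level of each of the 10 Argonautes in FPKM (vertical axes, each starting at 0) in the 3 libraries of each group (points), with the group mean and SD (bars, n = 3). The 22G Argonautes csr-1, wago-1 and hrde-1 are lowest in Nar+Glu, alg-1 is highest there, and alg-3 and alg-4 peak in Glu at means of 1.02 and 1.03 FPKM.

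With glucose alone, 6 of the 8 Argonautes past the filter fell and 0 rose. The 6 were csr-1, wago-1, hrde-1, prg-1, rde-1 and alg-2, and the means in Glu were 0.806 to 0.883 of those in Control. Of all genes tested, 18.7% were called lower in this comparison, and 1532 of the 12151 were called higher. The median change was -0.24 over the 8 Argonautes and -0.06 over all genes tested.

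All 3 of the 22G Argonautes fell. CSR-1's gene had 67.4, 60.9 and 61.3 FPKM in the Control libraries and 51.8, 52.2 and 50.7 FPKM in the Glu libraries. Every Glu library was below every Control library, and the log2 change was -0.29 (SE 0.067, adjusted p = 0.00768). For wago-1 the Control libraries had 140.4, 125.4 and 133.5 FPKM and the Glu libraries 113.6, 109.9 and 108.8 FPKM. Again the groups did not overlap, with a difference of -0.26 log2 units (SE 0.058, adjusted p = 0.00616). For hrde-1 the Control values were 159.0, 146.4 and 154.6 FPKM and the Glu values 134.9, 123.6 and 121.9 FPKM, a difference of -0.27 log2 units (SE 0.058, adjusted p = 0.00466) without overlap. The ratio of hrde-1 to wago-1 within a library averaged 1.15 in Control, 1.14 in both Glu and DMSO+Glu, and 1.17 in Nar+Glu, and its groups overlapped in all 4 comparisons in which ratios were tested.

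The piRNA Argonaute prg-1 and the RNA interference Argonaute rde-1 were also lower. In Control prg-1 had 80.5, 75.0 and 82.5 FPKM, and in Glu 73.6, 68.73 and 67.97 FPKM. The groups were separate but close, and the log2 change of -0.18 (SE 0.063) was just past the threshold, with an adjusted p of 0.0470. For rde-1 the values were 36.9, 30.9 and 29.0 FPKM in Control and 26.7, 26.6 and 24.6 FPKM in Glu. Control replicate 1 was well above the others, and the log2 change was -0.30 (SE 0.082, adjusted p = 0.0169). ERGO-1's gene had 85.0, 76.4 and 81.7 FPKM in Control and 86.8, 71.3 and 71.1 FPKM in Glu. Here the groups overlapped, and the log2 change of -0.09 (95% interval -0.30 to 0.13, adjusted p = 0.503) was not called.

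Of the microRNA Argonautes alg-2 fell, and alg-1 was not called. The Control libraries had 28.0, 24.7 and 24.5 FPKM of alg-2 and the Glu libraries 22.8, 20.3 and 22.6 FPKM, a fall of 0.22 on the log2 scale (SE 0.070, adjusted p = 0.0270) with no overlap. The other, alg-1, had 17.9, 17.2 and 15.9 FPKM in Control and 18.1, 15.7 and 18.8 FPKM in Glu, with overlapping groups and a log2 change of 0.04 (95% interval -0.14 to 0.22, adjusted p = 0.738). The ratio of alg-1 to alg-2 within a library, which does not change when all values of a library are multiplied by one factor, was 0.640, 0.696 and 0.647 in Control and 0.793, 0.774 and 0.831 in Glu. It was higher in every Glu library, by 0.28 on the log2 scale. With 3 libraries against 3 the exact two-sided permutation test cannot go below p = 0.1, the value reached here, and over the 28 tests made on 7 ratios the lowest adjusted p was 0.4. These ratios were chosen after the levels had been seen.

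The calls with glucose depended on the scaling and on single libraries. Median-ratio scaling, which divides each library by one factor, kept 5 of the 6 and lost prg-1 (adjusted p = 0.179). Quantile normalization gives every library the same distribution of values, and called 2262 of all genes. After it 2 of the 6 remained, wago-1 (log2 change -0.17) and hrde-1 (-0.18), while csr-1 had -0.15 (adjusted p = 0.0880). With a library covariate and no moderation 0 were called, and 124 of all genes, against 3808 in the fit used above. The covariate was the sum of a library's log2(FPKM + 1) values up to the upper quartile of those above 0. Without Control replicate 1 or without Glu replicate 3 the number was 3, with 2440 and 2013 of all genes called.

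The sperm Argonautes had higher means with glucose, without passing the test, at levels near the lower limit of the table, which held only genes with a highest group mean of at least 0.5 FPKM. In Control alg-3 had 0.778, 0.521 and 0.458 FPKM and in Glu 0.899, 1.29 and 0.878 FPKM. The Glu mean was 1.75 times that of Control and the groups did not overlap. For alg-4 the values were 0.974, 0.546 and 0.579 FPKM in Control and 1.02, 1.15 and 0.908 FPKM in Glu. The first Control library lay within the Glu range, and the Glu mean was 1.47 times that of Control. In a fit of all genes with no filter the log2 changes were 0.35 for alg-3 (adjusted p = 0.136) and 0.26 for alg-4 (adjusted p = 0.194), so neither was called.

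With naringin on glucose, 3 of the 8 Argonautes past the filter fell further below the solvent group and 0 rose. They were the 22G Argonautes csr-1, wago-1 and hrde-1, against 5.00% of all genes called lower. Of the 12151 genes tested, 592 were called higher. The medians were -0.13 over the 8 Argonautes and -0.01 over all genes tested.

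Among the 8 the largest fall was that of csr-1. It had 55.7, 53.6 and 51.3 FPKM in DMSO+Glu and 40.1, 47.1 and 43.5 FPKM in Nar+Glu, so the Nar+Glu mean was 0.814 of the DMSO+Glu mean. The log2 change was -0.29 (SE 0.067, adjusted p = 0.0151). For wago-1 the DMSO+Glu libraries had 121.6, 110.8 and 114.7 FPKM and the Nar+Glu libraries 96.7, 103.5 and 95.5 FPKM, a difference of -0.23 log2 units (SE 0.058, adjusted p = 0.0251). For hrde-1 they had 134.0, 125.1 and 136.2 FPKM against 118.4, 113.8 and 112.6 FPKM, a difference of -0.20 log2 units (SE 0.058, adjusted p = 0.0477). In all 3 genes every Nar+Glu library was below every DMSO+Glu library. Of the 8 Argonautes past the filter 5 had no overlap here, among them prg-1 and alg-2, which were not called.

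PRG-1's gene showed the same separation without passing the threshold. It had 76.9, 66.9 and 74.3 FPKM in DMSO+Glu and 62.4, 64.3 and 61.7 FPKM in Nar+Glu, a difference of -0.21 log2 units (SE 0.063, adjusted p = 0.0544). Its interval, -0.34 to -0.07, overlaps those of the called genes, and no difference between prg-1 and these was tested. In rde-1 the DMSO+Glu values of 26.6, 27.6 and 25.6 FPKM and the Nar+Glu values of 25.8, 27.1 and 24.8 FPKM overlapped, with a log2 change of -0.04 (95% interval -0.21 to 0.14, adjusted p = 0.798). In ergo-1 they were 77.4, 67.9 and 73.8 against 88.3, 69.3 and 67.9 FPKM, with a log2 change of 0.03 (95% interval -0.18 to 0.25, adjusted p = 0.866). One ergo-1 library in each of Glu and Nar+Glu, the first, stood well above the others.

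The naringin calls rested on few libraries. Median-ratio scaling kept all 3. Quantile normalization left 1, csr-1 (log2 change -0.24), with wago-1 at -0.14 (adjusted p = 0.0508). The covariate fit left 0, and 0 of all genes tested. Leaving out DMSO+Glu replicate 1 or Nar+Glu replicate 1 also left 0, with 555 and 621 of all genes called, against 1199 with all libraries. Without replicate 3 of DMSO+Glu or of Nar+Glu 1 was called, with 623 and 591 of all genes. Without Nar+Glu replicate 2 the number was 2, with 717 of all genes. Under the thresholds of the study, an unadjusted p below 0.05 and more than 1.1-fold, prg-1 joined them and 4 were called lower, against 13.7% of all genes.

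Neither microRNA Argonaute was called with naringin. The DMSO+Glu libraries had 19.6, 20.7 and 17.6 FPKM of alg-1 and the Nar+Glu libraries 20.6, 22.01 and 21.3 FPKM, a log2 change of 0.14 (95% interval -0.04 to 0.32, adjusted p = 0.310). For alg-2 the values were 23.9, 23.2 and 24.1 FPKM and 22.5, 23.1 and 22.3 FPKM, without overlap but with a log2 change of only -0.07 (95% interval -0.22 to 0.08, adjusted p = 0.571). Their ratio was 0.821, 0.893 and 0.728 in DMSO+Glu and 0.914, 0.955 and 0.955 in Nar+Glu. It was higher in each Nar+Glu library, by 0.21 on the log2 scale (exact permutation p = 0.1, the smallest possible), and by 0.14 without DMSO+Glu replicate 3.

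The sperm Argonautes were lowest with naringin. The DMSO+Glu libraries had 0.464, 0.515 and 0.700 FPKM of alg-3, and the Nar+Glu libraries had 0.0637, 0.232 and 0.548 FPKM. The third Nar+Glu library lay within the solvent range. For alg-4 the values were 0.531, 0.560 and 0.476 FPKM in DMSO+Glu and 0.350, 0.332 and 0.157 FPKM in Nar+Glu, with no overlap. The Nar+Glu means were 0.503 and 0.536 of the DMSO+Glu means, but with no filter the adjusted p-values were 0.288 for alg-3 and 0.296 for alg-4.

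**Figure D2:**
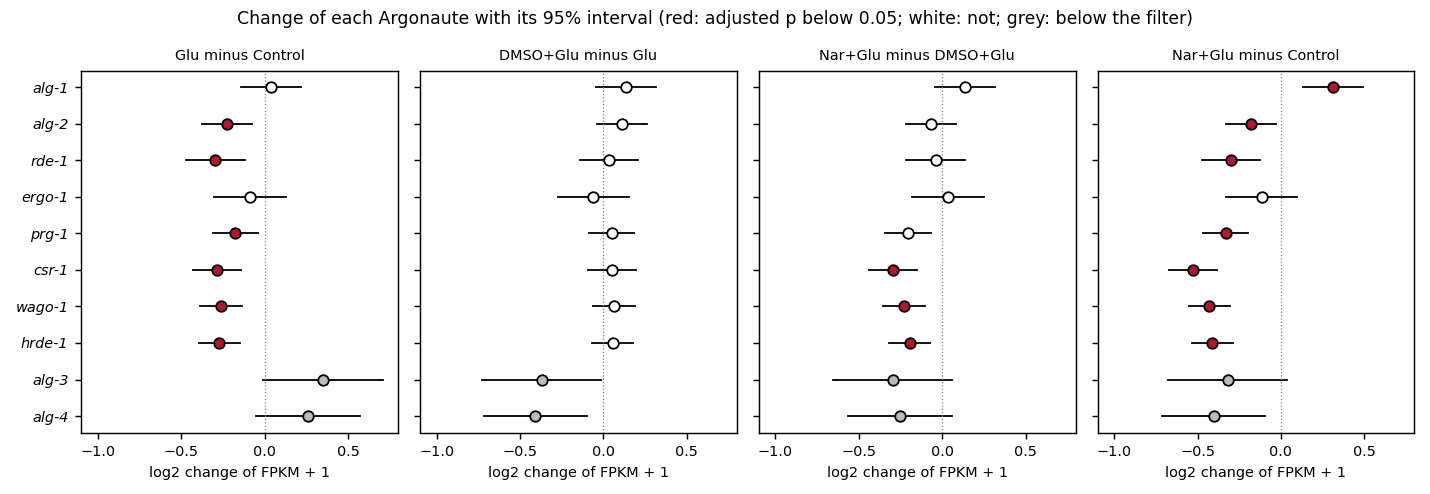
Change of each Argonaute in log2(FPKM + 1) (horizontal axis) in 4 comparisons, each the first named group minus the second, with the 95% interval of the limma fit. Red points passed an adjusted p of 0.05, white ones did not, and grey ones (alg-3 and alg-4) were below the filter and come from a fit with no filter. In the naringin comparison the red points are csr-1 at -0.29, wago-1 at -0.23 and hrde-1 at -0.20.

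Between DMSO+Glu and Glu, 0 of the 8 Argonautes past the filter were called by limma, and 0 had an unadjusted p below 0.05. In 1 of the 8, alg-2, the groups did not overlap. Adjusted p-values ran from 0.716 to 0.965, log2 changes from -0.06 in ergo-1 to 0.13 in alg-1, and the share of all genes called in either direction was 1.25%. The thresholds of the study also gave 0, against 9.23% of all genes in either direction. In the fit with no filter, alg-3 and alg-4 were lower in DMSO+Glu by log2 changes of -0.37 (unadjusted p = 0.0431, adjusted 0.498) and -0.41 (unadjusted p = 0.0130, adjusted 0.311), and the groups did not overlap in either gene. The DMSO+Glu means of 0.560 FPKM for alg-3 and 0.522 FPKM for alg-4 lay below the Control means of 0.586 and 0.700 FPKM.

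Over all 4 groups, 5 members shared one order of means, with Control highest, then DMSO+Glu, Glu and Nar+Glu: csr-1, wago-1, hrde-1, prg-1 and rde-1. In alg-3 and alg-4 the order was Glu, Control, DMSO+Glu and Nar+Glu. In alg-1 it ran from Nar+Glu through DMSO+Glu and Glu down to Control. In alg-2 it was Control, DMSO+Glu, Nar+Glu and Glu, and in ergo-1 Control, Glu, Nar+Glu and DMSO+Glu. The mean was highest in Control for 7 of the 10 members, against 47.6% of genes tested, and lowest in Nar+Glu for 7, against 38.2%. The 7 lowest in Nar+Glu include alg-3 and alg-4, which were below the filter and so not among the genes tested.

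Nar+Glu and Control differed in 7 of the 8 Argonautes past the filter. These groups differ in glucose, solvent and naringin together, which cannot be told apart in this comparison. Those lower were csr-1 (log2 change -0.53, adjusted p = 5.4e-05), wago-1 (-0.43, 9.76e-05), hrde-1 (-0.41, 0.00012), prg-1 (-0.33, 0.000938), rde-1 (-0.30, 0.0077) and alg-2 (-0.18, 0.043), against 33.2% of all genes called lower. One was higher, alg-1 (0.31, adjusted p = 0.0073), against 21.6% of all genes, with means of 17.0 FPKM ± 1.04 (SD, n = 3) in Control and 21.3 FPKM ± 0.713 (SD, n = 3) in Nar+Glu. The remaining gene, ergo-1, had a change of -0.12 (adjusted p = 0.340). After quantile normalization 4 were called, csr-1, wago-1 and hrde-1 lower and alg-1 higher. With no filter alg-4 was lower (-0.40, adjusted p = 0.0341) and alg-3 had -0.32 (adjusted p = 0.130).

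Nar+Glu and Glu differ in solvent and naringin together, and DMSO+Glu and Control in glucose and solvent, which cannot be told apart in these comparisons either. Between Nar+Glu and Glu csr-1 was called (-0.24, adjusted p = 0.0386), against 4.53% of all genes called lower, while wago-1 had -0.17 (adjusted p = 0.0980), hrde-1 -0.14 (0.162), prg-1 -0.16 (0.157) and alg-1 0.27 (0.0625). Here the scaling decided the call of alg-1, which was higher after median-ratio scaling (0.28, adjusted p = 0.018) and after quantile normalization (0.31, 0.0118), the latter with csr-1 lost (-0.19, 0.0685). The sperm Argonautes, in the fit with no filter, were lower in Nar+Glu than in Glu by log2 changes of -0.67 in alg-3 (adjusted p = 0.0258) and -0.66 in alg-4 (adjusted p = 0.0127), and their means were 0.275 and 0.273 of those in Glu. Between DMSO+Glu and Control 4 were lower, csr-1 (-0.23, adjusted p = 0.0275), wago-1 (-0.20, 0.030), hrde-1 (-0.22, 0.0212) and rde-1 (-0.26, 0.039), against 12.8% of all genes called lower. In that comparison prg-1 (-0.13, adjusted p = 0.156), alg-2 (-0.11, 0.251), alg-1 (0.17, 0.144) and ergo-1 (-0.15, 0.286) were not called, although the alg-2 groups did not overlap. Each other scaling kept 1 of the 4 falls, rde-1 with median-ratio scaling (adjusted p = 0.032) and hrde-1 with quantile normalization (0.0468), and called alg-1 higher (0.23, 0.0328, and 0.24, 0.0461). These comparisons share groups, so they are not independent of each other.

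Many other germ cell genes were called lower with glucose, as the 22G and piRNA Argonautes were, and fewer with naringin. Of all genes tested, 18.7% were called lower with glucose and 5.00% with naringin. Of 25 meiotic and mitotic germ cell markers, 17 were lower in Glu than in Control (median log2 change -0.24). Among them were htp-1 and syp-4, which build the axis and the synaptonemal complex of meiotic chromosomes, and the Notch receptor glp-1. With naringin 1 of the 25 was called lower, htp-1 (median over the list -0.14), and 10 were lower at an unadjusted p below 0.05. The summed marker level was 920 to 1029 FPKM in Control and 795.7 to 851.3 FPKM in Glu, with DMSO+Glu at 820.3 to 839.3 and Nar+Glu at 736.3 to 779.3 FPKM. Of 26 oocyte and early embryo markers 20 were lower with glucose and 5 with naringin, led by the RNA-binding protein gene mex-3 with glucose and egg-1, needed on oocytes for sperm entry, with naringin.

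Set against the summed germ cell markers of its own library, each of the 4 germline Argonautes overlapped between Glu and Control. For csr-1 this ratio was 0.0648 ± 0.00178 in Control and 0.0628 ± 0.00248 in Glu (SD, n = 3). With naringin it was lower in csr-1 and wago-1. For csr-1 DMSO+Glu had 0.0643 ± 0.00285 and Nar+Glu 0.0574 ± 0.00416 (SD, n = 3), a log2 change of -0.17, and for wago-1 it was 0.139 ± 0.00543 and 0.130 ± 0.00282 (SD, n = 3), a log2 change of -0.10. In both genes every Nar+Glu library was below every DMSO+Glu library (exact permutation p = 0.1, the smallest possible). Without Nar+Glu replicate 1 the change of the csr-1 ratio was -0.105. The ratios of hrde-1 (log2 change -0.06, exact permutation p = 0.3) and prg-1 (-0.07, p = 0.4) overlapped between those groups. Whether the amount of germline per worm took part in the changes of these Argonautes was not tested further.

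**Figure D3:**
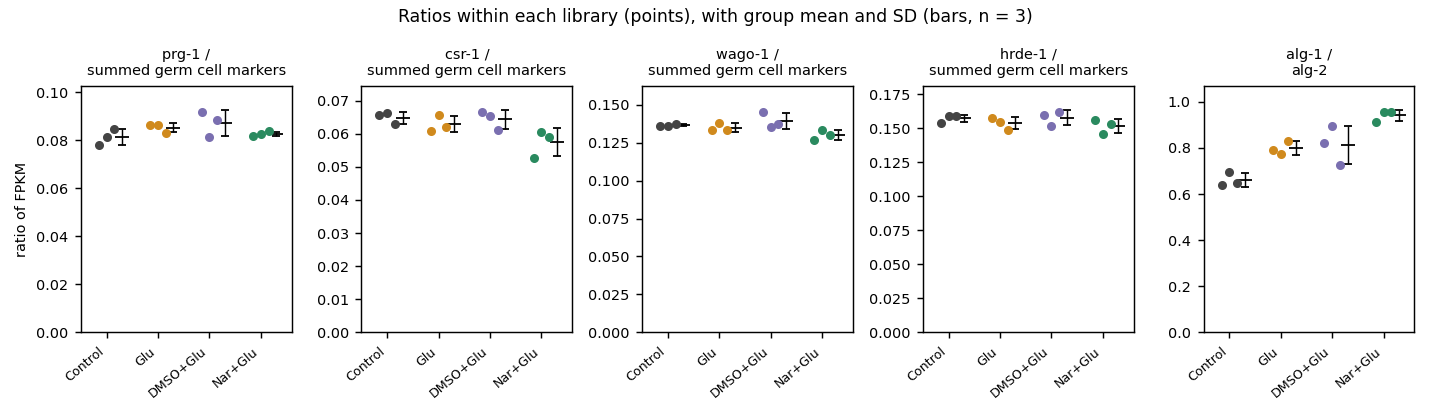
Ratio of FPKM within each library (vertical axes from 0) for prg-1, csr-1, wago-1 and hrde-1 over the summed 25 germ cell markers, and for alg-1 over alg-2, with group mean and SD (bars, n = 3). The csr-1 ratio falls from a mean of 0.0643 in DMSO+Glu to 0.0574 in Nar+Glu, and alg-1 over alg-2 climbs from 0.661 in Control to 0.941 in Nar+Glu.

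The sperm Argonautes had the same order of groups as the summed sperm markers apart from Control and DMSO+Glu. Most of these markers are genes of the major sperm protein. Of 38 such markers tested, 30 were higher in Glu than in Control (median log2 change 0.72), 29 were lower in Nar+Glu than in DMSO+Glu (median -0.98), and 12 were lower in DMSO+Glu than in Glu (median -0.71). Over all 12151 genes tested these numbers were 1532, 607 and 106. The sum over the 41 markers in the table was 179.8 to 216.4 FPKM in Control and 357.0 to 365.8 FPKM in Glu, with DMSO+Glu at 188.1 to 219.8 and Nar+Glu at 75.6 to 97.1 FPKM. The genes of the major sperm protein are nearly identical, so single values such as msp-53 (Control 7.64, Glu 15.2, DMSO+Glu 8.05 and Nar+Glu 2.65 FPKM) are uncertain. The summed alg-3 and alg-4 level came to 0.00628 ± 0.00162 (SD, n = 3) of the sperm marker sum in Control and 0.00566 ± 0.000888 in Glu, while DMSO+Glu had 0.00523 ± 0.000905 and Nar+Glu 0.00644 ± 0.00139. These ratios overlapped in every comparison tested, with exact permutation p-values of 0.3 to 0.8.

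**Figure D4:**
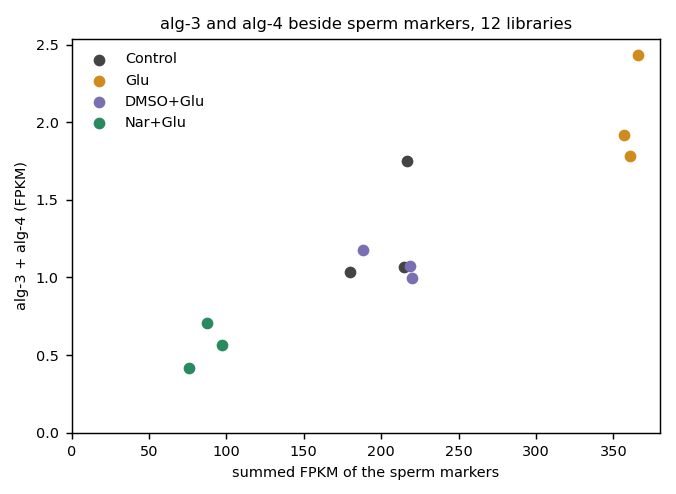
Summed FPKM of alg-3 and alg-4 (vertical axis) against the summed FPKM of the sperm markers (horizontal axis) in the 12 libraries, colored by group. The 3 Glu libraries lie at the upper right with marker sums of 357.0 to 365.8, the 3 Nar+Glu libraries at the lower left with 75.6 to 97.1, and Control and DMSO+Glu between them.

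Markers of other tissues moved as well. Of 12 neuron markers 10 were higher with glucose (median log2 change 0.48) and 5 with naringin (median 0.33). Of all 12151 genes tested, 1532 were higher and 2276 lower with glucose, and 592 were higher and 607 lower with naringin. Body muscle markers were higher with glucose in 7 of 10 and lower with naringin in 2 of 10. Intestine markers were called in both directions with glucose, 4 higher and 3 lower of 9, and 4 were lower with naringin. Of 10 hypodermis markers 1 was higher and 1 lower with glucose, and 2 each with naringin. In 6 embryonic markers tested 1 was higher and 2 were lower with glucose and 0 were called with naringin, where 1 had an unadjusted p below 0.05. What part these tissues had in the levels of alg-1, alg-2, rde-1 and ergo-1, which are not confined to the germline, was not tested.

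Some Argonautes outside the 10 fell too, where 18.7% of all genes tested were called lower with glucose and 5.00% with naringin. Of 9 tested, 5 were lower with glucose (median -0.20), including the germline microRNA Argonaute alg-5 (41.7 FPKM in Control, 33.2 in Glu, adjusted p = 0.0114), prg-2, a close relative of prg-1 (log2 change -0.25, 0.0141), and ppw-2 (44.3 and 37.3 FPKM, 0.0123). With naringin 2 were lower, ppw-2 (39.1 FPKM in DMSO+Glu and 32.8 in Nar+Glu, adjusted p = 0.0244) and ppw-1 (35.8 and 30.7 FPKM, 0.0363). Of the somatic secondary Argonautes, nrde-3 was lower with glucose (20.3 FPKM in Control, 16.7 in Glu, adjusted p = 0.0169). It was not called with naringin (adjusted p = 0.919), and sago-1 and sago-2 were called in neither.

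Genes that work with the 22G Argonautes were called lower with glucose in 3 lists, and whether glucose and naringin differed in these lists was not tested. Of all genes tested, 18.7% were called lower with glucose and 5.00% with naringin. The pathway lists share some genes, among them rrf-1 and rde-4, so their counts are not independent. In the list of 22G RNA amplification and mutator foci, where RNA-dependent RNA polymerases copy target transcripts, 10 of 13 were lower with glucose (median -0.29) and 0 were called with naringin, where 3 had an unadjusted p below 0.05 (median -0.08). The exonuclease gene mut-7 went from 45.1 FPKM in Control to 35.3 in Glu (adjusted p = 0.00386), and the polymerase genes ego-1 and rrf-1 from 35.0 to 28.0 (0.00483) and from 32.05 to 25.46 FPKM (0.00566). Among P granule genes, which form the perinuclear granules where several of these Argonautes sit, 8 of 15 were lower with glucose and 3 with naringin: deps-1 (68.5 FPKM in DMSO+Glu, 56.7 in Nar+Glu, adjusted p = 0.0137), pgl-3 (51.2 and 41.9 FPKM, 0.0263) and mip-1, listed under its sequence name C38D4.4 (37.2 and 31.4 FPKM, 0.0207). In nuclear RNA interference, the branch of hrde-1, 7 of 11 were lower with glucose, among them morc-1 (40.7 to 32.2 FPKM, 0.00191), and 0 were called with naringin, with 2 at an unadjusted p below 0.05.

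The lists of the pathways of prg-1, ergo-1 and rde-1 also held genes called lower with glucose. The shares of all genes tested that were called lower were 18.7% with glucose and 5.00% with naringin. Of 17 piRNA genes 10 were lower with glucose, such as snpc-4, which drives piRNA transcription (41.2 FPKM in Control, 33.6 in Glu, adjusted p = 0.00685), and 1 was lower with naringin, pid-2, listed as Y48G1C.1 (18.6 FPKM in DMSO+Glu, 14.5 in Nar+Glu, 0.0176). In the 26G list 7 of 11 were lower with glucose, including the polymerase gene rrf-3 that makes 26G RNAs (16.9 and 13.5 FPKM, adjusted p = 0.00769), while ergo-1 itself was not called. With naringin 0 of the 11 were called and 1 had an unadjusted p below 0.05. In the exogenous RNA interference list 4 of 14 were lower with glucose, among them rde-4, whose product binds double-stranded RNA with RDE-1 (61.2 and 51.6 FPKM, adjusted p = 0.0137), and with naringin 0 were called and 0 had an unadjusted p below 0.05.

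In the microRNA pathway 1 of 15 was higher and 5 were lower with glucose, and 2 were higher and 2 lower with naringin. Of all 12151 genes tested, 1532 were higher and 2276 lower with glucose, and 592 were higher and 607 lower with naringin. The higher ones in the list were lin-14, a target of the lin-4 microRNA in larvae, and ain-1, the GW182 protein gene whose product binds ALG-1 and ALG-2. The gene lin-14 averaged 10.4 FPKM in Control and 14.2 FPKM in Glu, with DMSO+Glu at 14.3 and Nar+Glu at 22.2 FPKM, and was called with glucose (log2 change 0.41, adjusted p = 0.00922) and with naringin (0.61, adjusted p = 0.0019). With naringin ain-1 went from 32.8 to 43.9 FPKM (0.41, adjusted p = 0.00452), and cgh-1, a helicase gene of germ granules and processing bodies, from 477.6 to 404.4 FPKM (-0.24, adjusted p = 0.0316). With glucose the Drosha gene drsh-1 fell from 39.36 to 31.98 FPKM (adjusted p = 0.0158). None of the genes in these 8 lists was called between DMSO+Glu and Glu, where 1, in the exogenous list, had an unadjusted p below 0.05.

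Across the 12 libraries the Argonautes were alike to different degrees. The pairwise Pearson correlations among prg-1, csr-1, wago-1 and hrde-1 were 0.888 to 0.968, those of alg-2 and rde-1 with these 4 were 0.666 to 0.768 and 0.624 to 0.790, and those of alg-1 were -0.607 to -0.693. Between alg-2 and rde-1 the value was 0.806. These are descriptions over 12 libraries that share scaling and group differences. Among 8080 genes with a mean above 5 FPKM, the most similar to csr-1 were acdh-3 (Pearson r = 0.981) and nyn-1 (0.979), to wago-1 gfat-2 (0.991) and plk-2 (0.984), to hrde-1 cbd-1 (0.987) and hmg-12 (0.983), and to prg-1 rga-3 (0.984) and puf-5 (0.980). For alg-1 they were T19B10.2 (0.961) and noah-1 (0.958), for alg-2 T01H3.3 (0.983) and B0511.12 (0.967), for rde-1 usip-1 (0.981) and ehbp-1 (0.976), and for ergo-1 par-3 (0.972) and sas-1 (0.965). Of acdh-3 and nyn-1, the latter was more alike to csr-1 by rank, and other genes were not compared by rank. The means of nyn-1 were 17.9 FPKM in Control and 14.2 FPKM in Glu, with DMSO+Glu at 15.0 and Nar+Glu at 12.3 FPKM.

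The transcript table held 17 transcripts of the 10 genes, of which 14 had a mean above 1 FPKM. With glucose 3 were lower, against 9.39% of 17588 transcripts called in either direction: the main transcripts of csr-1 (F20D12.1a, log2 change -0.29, adjusted p = 0.0278), wago-1 (R06C7.1.2, -0.26, 0.0182) and hrde-1 (C16C10.3, -0.27, 0.0151). With naringin 1 was lower, against 2.19%, the main wago-1 transcript (-0.24, adjusted p = 0.0497), with the main csr-1 transcript at -0.30 (0.0526). Between DMSO+Glu and Glu 0 were called, against 0.216%. With the replicate number as a block the naringin call was lost (adjusted p = 0.071) and so was that of csr-1 with glucose (0.0506). A minor transcript took 1.14% to 2.19% of the summed csr-1 transcript FPKM (F20D12.1b) and 1.68% to 3.84% of that of wago-1 (R06C7.1.1).

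The share of the alg-2 transcripts did not follow the gene level. T07D3.7b held 93.6% and 91.9% of the summed transcript FPKM in Control replicates 1 and 3, but 21.5% in Control replicate 2 and 13.1% to 28.7% in the other 9 libraries. The gene value of alg-2 was similar in Control replicates 2 and 3, at 24.7 and 24.5 FPKM. With all libraries the changes with glucose were 1.70 for T07D3.7a (adjusted p = 0.107) and -1.49 for T07D3.7b (adjusted p = 0.0714), so neither was called. When 1 library was left out, T07D3.7a ran from 1.208 to 2.641, with adjusted p from 1.09e-05 to 0.292. T07D3.7b ran from -2.164 to -1.104, with adjusted p from 0.000884 to 0.205. Both were called only without Control replicate 2, the library that differed from the rest of Control, so these calls rest on its removal. In alg-1 the share of F48F7.1b ranged from 40.9% to 85.6% with no order by group. How the shared exons of these transcripts were divided by the assembler in each library was not tested.

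**Figure D5:**
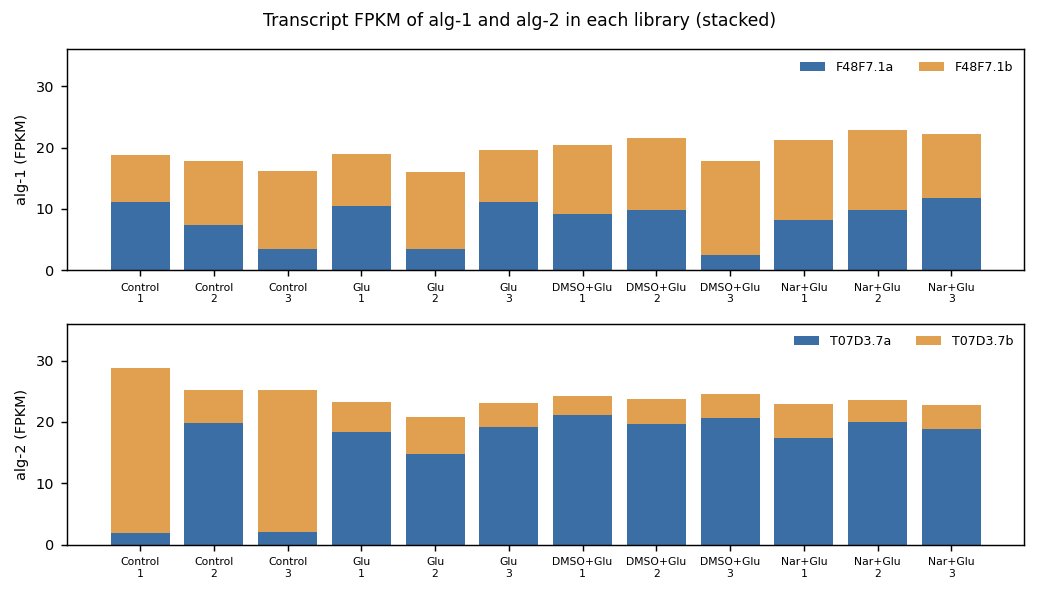
Transcript FPKM (vertical axis) of alg-1 (upper panel, F48F7.1a and F48F7.1b) and alg-2 (lower panel, T07D3.7a and T07D3.7b) in each of the 12 libraries, stacked. The alg-2 bars are nearly all T07D3.7b in Control 1 and 3, at 93.6% and 91.9%, and mostly T07D3.7a elsewhere.

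Circular RNAs were counted in the same libraries. Among 2136 of them 1864 were named by coordinates, and 0 of these lay in a member gene. The other 272 carried a catalogue number that the table does not pair with a host gene.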

How the data were processed

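The members and the gene lists were chosen with earlier results of these data known. According to the methods of the study, poly(A) RNA was sequenced with a stranded kit, and progeny had been removed by sedimentation. The authors aligned reads with HISAT2 2.1.0 and computed the deposited FPKM with StringTie 1.3.3 and Ballgown on WBcel235, and obtained the deposited circular RNA counts with STAR 2.5.2b and CIRCexplorer2. Groups came from the labels.

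FPKM were tested as log2(FPKM + 1) with limma 3.58.1 in R 4.3.3 (mean-variance trend, all 12 libraries in 1 fit by group), for the 12151 genes and 17588 transcripts with a mean above 1 FPKM. Calls needed an adjusted p below 0.05 over all features, and the step was tested on simulated data. Ratios within a library were compared by exact two-sided permutation. The number of fragments is unknown, so no counting interval is given.

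Named were the 10 members, at most 3 called genes a list and comparison with the smallest adjusted p, and for each member past the filter the 2 likest genes. Outside this rule nrde-3, sago-1 and sago-2 were named. The alternatives were other pseudocounts, filters, scalings, covariates and thresholds, a replicate block, a fit of only the 6 libraries compared, and leaving out each library. The leaving out of libraries from the ratios was added after the data were seen. No sequences are shown.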

Additional observations from a re-analysis of the deposited data

How the results depend on the processing

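The falls of csr-1, wago-1, hrde-1, prg-1, rde-1 and alg-2 with glucose, and of the first 3 with naringin, kept their direction under every alternative run. Their number past the threshold did not. It was 0 to 6 with glucose and 0 to 4 with naringin over the covariate fit and the fits that leave out 1 library. After median-ratio scaling it was 5 and 3, and after quantile normalization 2 and 1. A fit of only the 6 libraries compared gave 4 with glucose, without alg-2 and prg-1, and 2 with naringin, without hrde-1. With no filter on low values it was 5 with glucose, without prg-1, and 2 with naringin, without hrde-1. The 0 came from the covariate fit in both comparisons and with naringin also from leaving out DMSO+Glu replicate 1 or Nar+Glu replicate 1. Of all genes tested, the covariate fit called 124 with glucose and 0 with naringin.

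Between other groups, Nar+Glu against Glu went from 1 to 3 with no filter (alg-3 and alg-4 added) and 2 with median-ratio scaling (alg-1 added, higher), and kept a count of 1 after quantile normalization with alg-1 in place of csr-1. Nar+Glu against Control went to 4 after quantile normalization, and DMSO+Glu against Control from 4 to 2 with either scaling, 1 lower and alg-1 higher. Libraries were not left out in these comparisons, nor for their ratios.

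Signs turned only in changes that were not called. Quantile normalization gave ergo-1 0.036 with glucose, 0.044 for Nar+Glu against Glu and 0.08 against Control, rde-1 0.009 with naringin and 0.036 for Nar+Glu against Glu (median-ratio scaling 0.005), and alg-2 0.013 for DMSO+Glu against Control. The covariate fit gave alg-1 -0.049 with glucose. Leaving out 1 library gave alg-1 -0.01 to 0.11 with glucose, ergo-1 -0.087 to 0.1 with naringin and, between DMSO+Glu and Glu, ergo-1 -0.108 to 0.035 and rde-1 -0.004 to 0.06. The causes were not tested.

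Called transcripts numbered 0 to 5 with glucose and 0 to 1 with naringin when 1 library was left out. Quantile normalization gave 1 and 0, and the replicate block gave 0 with naringin. What same-numbered libraries shared beyond the number is not given by the labels. Their residual correlations ran from -0.1 to 0.128 over 18 pairs, against -0.153 to 0.113 over 36 pairs with different numbers. The block changed no call of a member gene.

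When 1 library was left out, the ratio of alg-1 to alg-2 changed by 0.246 to 0.312 with glucose and 0.136 to 0.283 with naringin, and that of csr-1 to germ cell markers by -0.204 to -0.105 with naringin. The ratio of alg-3 and alg-4 to sperm markers turned its sign with glucose (-0.283 to 0.068).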
